A study of Mus musculus with 12 samples.

Results

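Liver transcripts late in the night, at zeitgeber time (ZT) 22, were compared with those in the middle of the night, at ZT18, in mice that lack both cryptochromes. The comparison was defined by collection time alone and rests on 4 of the 12 libraries of the series, 2 from ZT18 and 2 from ZT22; the other 8, from 4 further times of day, entered the model only to estimate the spread between libraries of one time. At both times the animals were male C57BL/6j mice lacking Cry1 and Cry2, fed at night, aged 12 to 16 weeks and conventionally raised with respect to gut microbiome, so the knockout is shared by both groups and no wild-type library was analysed here. The measured quantity was the number of exon reads per gene from rRNA-depleted total RNA. The sources used here do not give the light schedule. The labels do not say that libraries came from separate animals, so each p-value reflects only how far these libraries scatter, which may in part be technical.

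Cryptochromes are the repressor proteins that close the transcriptional loop of the circadian clock by silencing CLOCK:BMAL1, and without them the clock does not run by itself. The liver of such a mouse still meets daily signals from food, hormones and body temperature. Hepatocytes answer these through dedicated transcription factors: STAT3 and C/EBP proteins for the acute-phase proteins secreted into blood, STAT5 for growth hormone, heat shock factor for cytosolic chaperones, and ATF6 and XBP1 for chaperones of the endoplasmic reticulum.

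Library totals lay between 35928347 and 38942480 counts, and 17142 of 22618 genes passed the filter on low counts. Levels are given in CPM, counts scaled by TMM to a common library size, and compare one gene between libraries, not genes with each other. Over the 9842 genes averaging 5 CPM or more, the median absolute log2 difference was 0.107 between the 2 ZT18 libraries, 0.118 between the 2 ZT22 libraries and 0.113 to 0.147 between libraries of different times. By this median the ranges within and between times overlapped. More than 2-fold differences were found for 33 genes in the ZT18 pair and 79 in the ZT22 pair, against 65 to 96 between times. The chi-square per degree of freedom was 12.8 and 26.1 within the pairs, above sampling noise, and 20.3 to 32.2 between times. The marker genes of hepatocytes were abundant in each library: Alb, the gene of serum albumin, had 57723 and 59433 CPM at ZT18 and 60808 and 65724 at ZT22. Cry1 had 9.59 and 10.5 CPM at ZT18 and 5.71 and 9.56 at ZT22, and Cry2 17.0 and 16.0 at ZT18 against 13.2 and 17.5 at ZT22. The groups overlapped for Cry2 and were separate for Cry1 by a narrow margin. These counts do not test the genotype, since which exons the alleles lack was not given.

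One library stood apart. In ZT22 replicate 1, 36 table entries had at least 1 CPM and at least 10 times the level of each of the other 3 libraries, against 1 entry in ZT22 replicate 2 (Gucy2c) and 0 in either ZT18 library. Flrt3 is listed 2 times among them with identical values. Dmbt1, a secreted protein of mucosal epithelia that overlaps Fgfr2 on the opposite strand, had 394 CPM there and 0.0263, 0.139 and 0.0260 CPM in ZT18 replicates 1 and 2 and ZT22 replicate 2. Olfm4, a marker of intestinal crypts, had 6.96 CPM in ZT22 replicate 1 and at most 0.0263 CPM elsewhere, and Duox2, the oxidase of mucosal surfaces, had 8.64 against at most 0.0520. A further pair of lists, of gut and bile duct epithelium and of smooth muscle, were drawn up after this was seen. Of 22 epithelial genes 17 were in the table, and the intestinal genes Krt20, Cdx1, Cdx2, Muc2 and Alpi were not. The summed level of the 17 was 34.4 and 43.7 CPM at ZT18 and 484 and 34.2 CPM at ZT22. Dmbt1 alone made up most of the third value: without it the sums were 34.3 and 43.6 CPM at ZT18 and 89.8 and 34.1 CPM at ZT22. That of the 7 smooth muscle genes was 26.8 and 24.5 CPM at ZT18 against 91.4 and 17.2 CPM at ZT22. The intestinal genes did not all follow: Spink4, a peptide of goblet cells, had 2.46 CPM in ZT22 replicate 1 and 0 in each of the others, whereas Cdh17, a cadherin of the gut, was at 0 in ZT22 replicate 1 and at 0.0788 CPM in ZT18 replicate 1. Fabp2, the intestinal fatty acid binding protein, was present in all 4 libraries, with 26.2 and 37.7 CPM at ZT18 and 30.6 and 28.6 CPM at ZT22. Their part in the results was not tested.

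**Figure D1:**
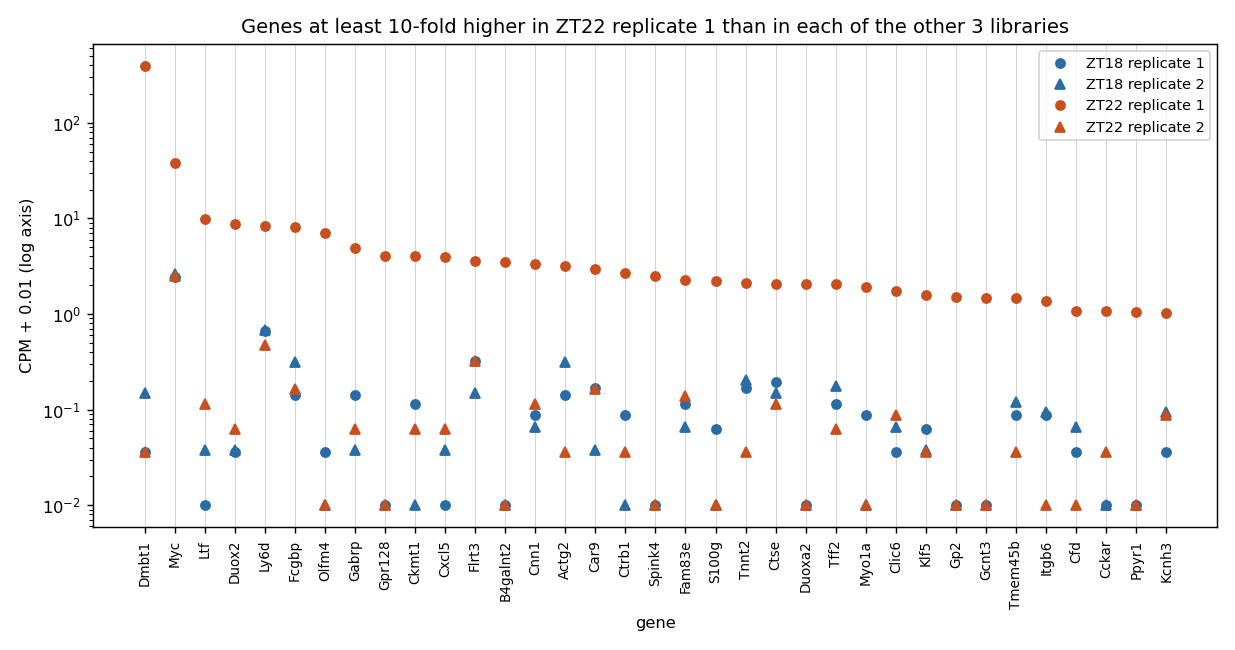
Level (CPM + 0.01, log axis) of the genes at least 10-fold higher in ZT22 replicate 1 (orange circles) than in each of the other libraries (blue, ZT18; orange triangles, ZT22 replicate 2). Dmbt1 reaches 394 CPM in that library, and Spink4 is at 2.46 CPM there and at 0 in the other 3.

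No gene met the threshold. With edgeR's quasi-likelihood test and a Benjamini-Hochberg adjusted p under 0.05 over all 17142 genes, 0 genes were called (0%), and the smallest adjusted p was 0.436, for Chka. At an unadjusted p under 0.05 there were 845 genes (4.93%), of which 424 (2.47% of all tested) were higher and 421 (2.46%) were lower at ZT22. With total counts in place of TMM scaling the split was 326 higher and 497 lower. Both ZT22 libraries lay above both ZT18 libraries for 3268 genes (19.1%) and below both for 3504 (20.4%). DESeq2 called 19 genes, 9 higher and 10 lower, and limma-voom 0 (767 at an unadjusted p under 0.05). Among the 19 was Slc26a3, an absorptive gene of the added epithelial list, at a log2 difference of 5.39 (DESeq2, adjusted p = 0.0329). Both ZT22 libraries lay above both ZT18 libraries for Slc26a3. Another of the 19 was Dmbt1 (DESeq2, adjusted p = 0.00797), which was high in ZT22 replicate 1 alone. A DESeq2 call thus does not exclude a difference made by 1 library. The values below therefore describe these libraries, and a gene is called higher or lower only in the sense of its levels. A 95% interval of the log2 difference had a median half-width of 0.318 among genes of at least 5 CPM, a factor of 1.25. Differences smaller than that were not resolvable for the typical gene. The interval is not adjusted for the number of genes tested, and larger differences failed the threshold too.

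Among the 9842 genes of at least 5 CPM, 53 had a log2 difference of at least 1 in size, 30 higher and 23 lower at ZT22, and for 43 of them the libraries of the times did not overlap, as for 41.9% of the 9842. For 17 of the 53 a single library made the difference, in the sense that the libraries of one time differed more than the time point means: ZT22 replicate 1 for 12, ZT22 replicate 2 for 3 and ZT18 replicate 2 for 2. By the same rule 71.0% of the 9842 genes were driven by 1 library. In the plot of all genes of at least 5 CPM, the genes with the smallest p on the higher side were mostly secreted proteins of the acute phase, and those on the lower side included chaperones.

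**Figure D2:**
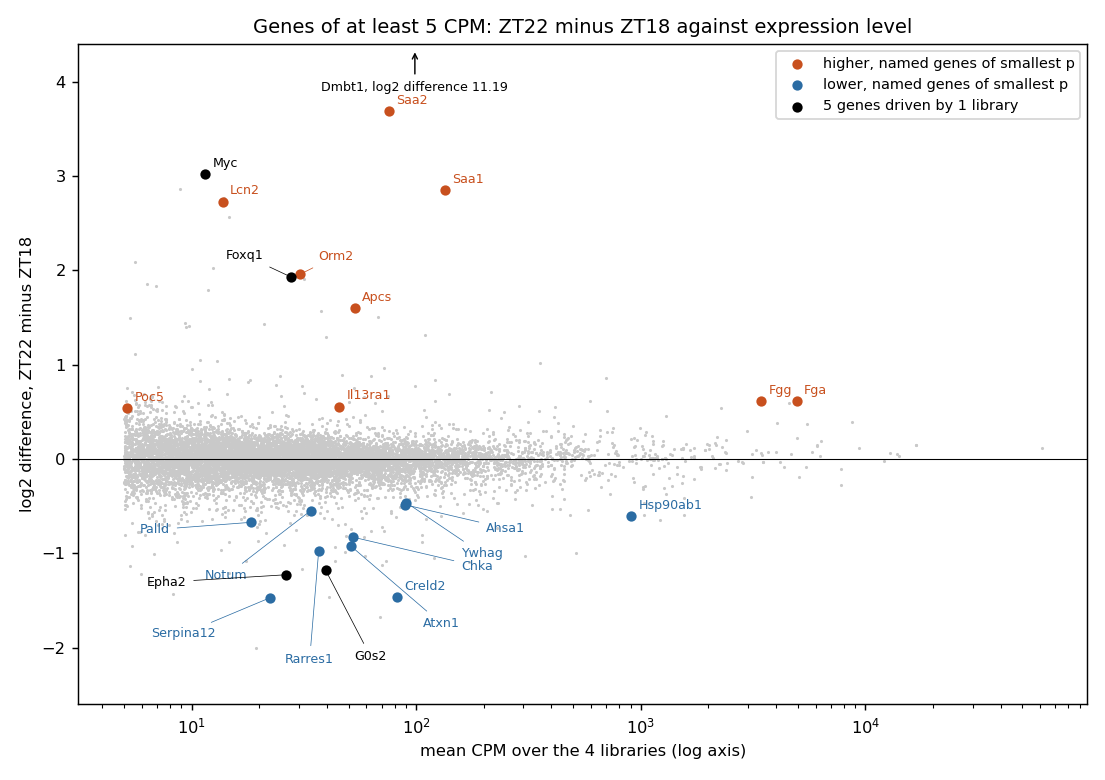
Log2 difference (ZT22 minus ZT18) against mean CPM over the 4 libraries (log axis), 1 grey point per gene of at least 5 CPM; orange and blue mark the named higher and lower genes of smallest p, black the genes driven by 1 library. Saa2, at 3.69, and Saa1, at 2.85, lie far above the band of most genes, and Dmbt1, at 11.19, lies beyond the axis.

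Most acute-phase genes stood higher at ZT22, though none was called by edgeR. Hepatocytes secrete these proteins in response to interleukin-6 and interleukin-1. Saa1 and Saa2 encode serum amyloid A, the main inducible acute-phase proteins of the mouse; they lie close together on chromosome 7 (chr7:46740497-46742980 on the minus strand and chr7:46751790-46754313 on the plus strand, GRCm38). Their RefSeq promoters (build GRCm38.p6), the 250 bases upstream of each start, are shown because the 2 genes had the largest differences among the higher genes of smallest p and because their sequences are alike enough that reads could be shared. Capitals mark the letters TTGCNNAA, searched on both strands as a form of the C/EBP motif; the intervals are chr7:46742981-46743230 (minus strand) and chr7:46751583-46751832 (plus strand).
Saa1: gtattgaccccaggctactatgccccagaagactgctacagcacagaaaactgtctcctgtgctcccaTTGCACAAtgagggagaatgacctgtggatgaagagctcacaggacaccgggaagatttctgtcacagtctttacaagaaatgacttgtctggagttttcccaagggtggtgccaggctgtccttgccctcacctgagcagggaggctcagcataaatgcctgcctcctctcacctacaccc
Saa2: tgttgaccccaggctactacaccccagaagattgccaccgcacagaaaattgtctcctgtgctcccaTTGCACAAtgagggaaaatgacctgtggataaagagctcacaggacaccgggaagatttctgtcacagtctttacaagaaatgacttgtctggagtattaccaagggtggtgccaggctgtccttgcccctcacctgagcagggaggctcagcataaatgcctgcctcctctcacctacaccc
Each promoter holds the motif 1 time, 182 and 183 bases before the start. Of the 27 listed acute-phase genes 21 had a RefSeq promoter, and 12 of these held the motif, against 9.57% of all 32817 promoters. Here and for the motifs below, a listed gene counted if any of its RefSeq starts had a match. The share over all promoters counts each promoter by itself, so the 2 are not in the same unit. A match of letters is a description and not evidence of binding.

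Saa2 had 14.2 and 7.59 CPM at ZT18 and 95.8 and 185 CPM at ZT22. The log2 difference was 3.69 ± 0.65 (SE, n = 2 and 2; edgeR quasi-likelihood, adjusted p = 0.538). Saa1 had 38.0 and 27.0 CPM at ZT18 against 155 and 316 CPM at ZT22, a log2 difference of 2.85 ± 0.54 (edgeR, adjusted p = 0.538). Both genes were higher in each ZT22 library than in each ZT18 library, and higher again in ZT22 replicate 2 than in replicate 1. DESeq2 called both, with Benjamini-Hochberg adjusted p of 0.0049 and 0.0154. The difference was smaller without ZT22 replicate 2, at 3.14 for Saa2 and 2.25 for Saa1.

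Apcs encodes serum amyloid P, the pentraxin that marks the acute phase in mice. It had 26.6 and 26.1 CPM at ZT18 and 49.98 and 110.2 CPM at ZT22, a log2 difference of 1.60 ± 0.30 (edgeR, adjusted p = 0.538). DESeq2 called it with an adjusted p of 7.52e-05. It was also the 1 gene that edgeR called when ZT22 replicate 1 was left out, at 2.06 (adjusted p = 0.0173). Orm2, an orosomucoid that carries lipophilic compounds in plasma, had 15.02 and 9.90 CPM at ZT18 against 25.4 and 71.6 CPM at ZT22. Its relative Orm1 had 579 and 588 at ZT18 against 768 and 894 at ZT22; reads of the Orm genes, as of Saa1 and Saa2, can be divided uncertainly between near-identical copies. Lcn2, the iron-siderophore binding lipocalin, had 4.20 and 3.003 CPM at ZT18 against 10.4 and 37.4 CPM at ZT22. For these genes the groups did not overlap, and ZT22 replicate 2 was the highest library.

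The 3 chains of fibrinogen, the clotting protein, differed by similar amounts. Fga had 4024 and 3785 CPM at ZT18 and 5491 and 6470.2 CPM at ZT22, a log2 difference of 0.62 ± 0.15. Fgb had 3787 and 3527 at ZT18 against 4961 and 6072 at ZT22, a difference of 0.59 ± 0.16, and Fgg had 2826 and 2628 at ZT18 against 3762 and 4556 at ZT22, a difference of 0.61 ± 0.15. No chain passed in edgeR (adjusted p from 0.896 to 0.975), whereas DESeq2 called Fga and Fgg, each with an adjusted p of 0.0154. C3, the central complement protein and one of the 2 members with the highest mean CPM, had 7834 and 7170.2 CPM at ZT18 against 9269 and 10436 CPM at ZT22. Serpina3m, the other one and a serine protease inhibitor that overlaps its relative Serpina3k on the same strand, had 12436 and 14774 at ZT18 against 13833 and 14457 at ZT22, with overlapping groups.

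Over the 27 acute-phase genes, all of which were tested, 21 had both ZT22 libraries above both ZT18 libraries (19.1% of all genes did), 1 had both below (Hamp), and 5 overlapped. At an unadjusted p under 0.05, 12 were higher and 0 lower, where 2.47% of all genes were higher. The median log2 difference was 0.51, against -0.002 over all genes tested. Their summed level was 46412 and 46458 CPM at ZT18 and 53840.0 and 63663 CPM at ZT22. Hamp, which encodes the iron hormone hepcidin, had 145 and 179.7 CPM at ZT18 against 42.2 and 114 CPM at ZT22, with the lowest level in ZT22 replicate 1. Crp, Cfb and Cp, which encode C-reactive protein, complement factor B and ceruloplasmin, had small log2 differences of 0.27, 0.11 and 0.19, without overlap. Il1rn, the secreted interleukin-1 receptor antagonist, had 0.552 and 0.528 CPM at ZT18 against 1.47 and 0.857 CPM at ZT22. Without ZT22 replicate 2 the median of the list was 0.27 with 8 members higher and 1 lower at an unadjusted p under 0.05; without ZT22 replicate 1 it was 0.62 with 14 higher.

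Markers of blood cells stood higher at ZT22 beside these genes. Of the 9 neutrophil markers 4 were tested, and each of the 4 had both ZT22 libraries above both ZT18 libraries, as 19.1% of all genes did. S100a9, the calcium-binding protein of neutrophil granules, had 0.683 and 0.695 CPM at ZT18 and 1.89 and 1.43 CPM at ZT22, and Csf3r, the receptor for the granulocyte growth factor, had 1.79 and 1.92 at ZT18 against 2.41 and 3.35 at ZT22. The other 5 neutrophil markers, Camp and Ly6g among them, failed the filter on low counts; Camp was at 0 in ZT18 replicates 1 and 2 and ZT22 replicate 2. The summed level of all 9 was 3.07 and 3.53 CPM at ZT18 against 6.07 and 6.70 CPM at ZT22. Of 12 lymphocyte markers 9 were higher without overlap, Cd79b of B cells at 0.35 and Cd4 of T cells at -0.01 (log2), with sums of 7.22 and 7.34 at ZT18 against 9.29 and 10.6 CPM at ZT22. Of 6 tested erythroid markers 5 were higher without overlap, with sums of 117 and 171 at ZT18 against 274 and 197 CPM at ZT22; Hba-a1, an alpha globin gene with a near-identical copy, had 8.19 and 14.5 at ZT18 against 36.3 and 24.8 CPM at ZT22, and Alas2, the first enzyme of heme synthesis in red cells, 77.9 and 93.0 at ZT18 against 80.1 and 70.6 at ZT22. For macrophages, the 10 Kupffer cell markers summed to 498 and 394 CPM at ZT18 against 437 and 537 CPM at ZT22, each with overlapping groups, and Clec4f, their lectin receptor, had 118 and 94.4 at ZT18 against 107 and 115 at ZT22. Cd5l, secreted by them, had 80.8 and 62.4 at ZT18 against 75.6 and 97.8 at ZT22. At an unadjusted p under 0.05, 4 neutrophil, 4 lymphocyte and 3 erythroid markers were higher; without ZT18 replicate 1 these counts were 2, 1 and 0, and without ZT22 replicate 1 they were 4, 2 and 0. In bulk RNA, more cells of a type and more RNA per cell cannot be told apart, and the part of these cells in the other results was not tested.

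**Figure D3:**
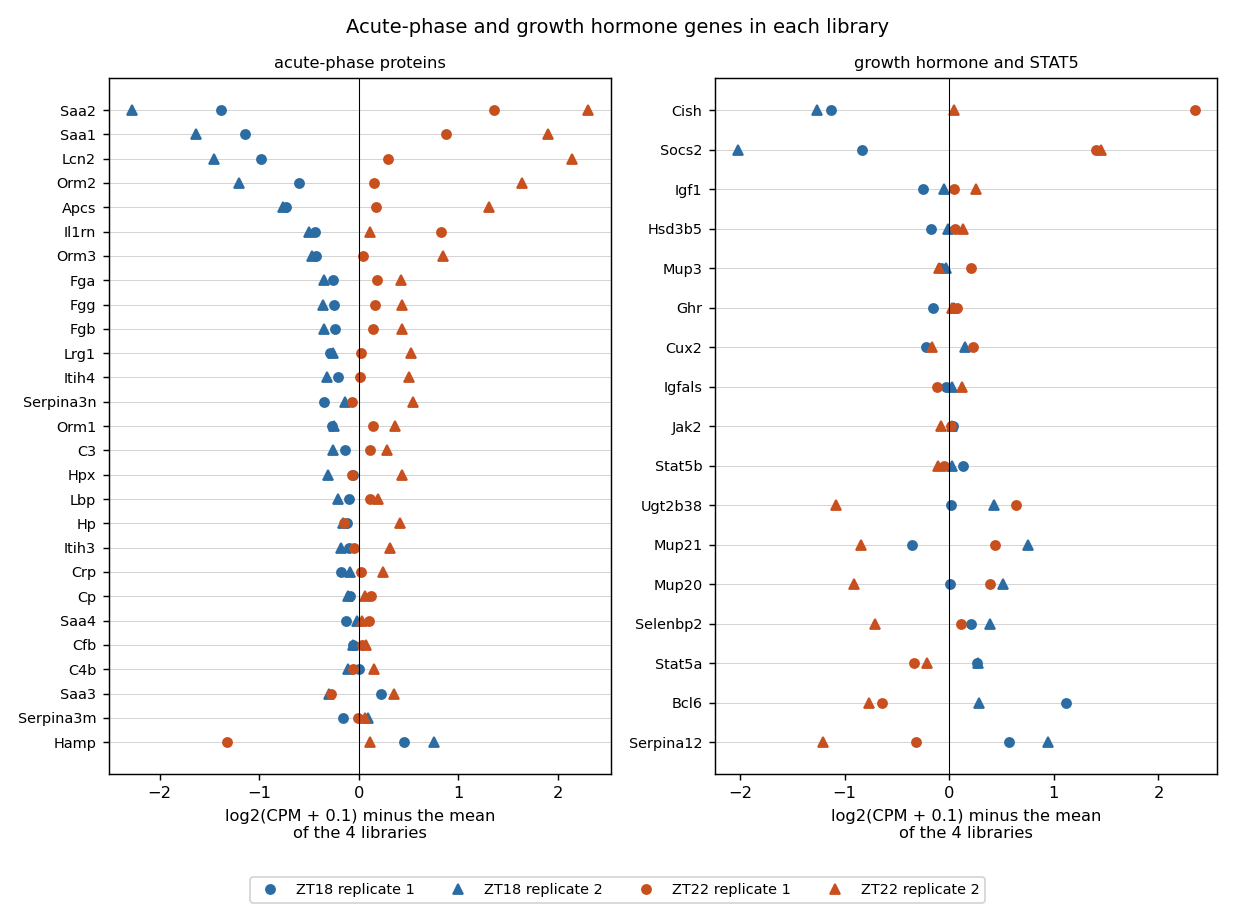
Level in each library as log2(CPM + 0.1) minus the mean of the 4 libraries, for acute-phase genes (left) and growth hormone genes (right); blue marks ZT18, orange ZT22, circles replicate 1 and triangles replicate 2. On the left 21 of 27 genes have both orange symbols to the right of both blue ones, and on the right Socs2 and Cish do while Bcl6, Stat5a and Serpina12 show the opposite order.

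The signalling genes upstream of the acute phase showed no common direction. Of 22 genes of interleukin-6 and NF-kB signalling, 4 were higher and 7 lower without overlap, where 19.1% and 20.4% of all genes were, and the median was -0.05. Il6st, the signal-transducing receptor chain gp130, had 221 and 191 CPM at ZT18 and 199.98 and 235 CPM at ZT22. Stat3, the transcription factor behind it, had 153 and 136 at ZT18 against 134 and 162 at ZT22, and Cebpb 93.2 and 102 at ZT18 against 64.4 and 94.2 at ZT22, with overlapping groups in each case. A pair of feedback inhibitors stood higher. Socs3, which blocks gp130 and JAK signalling, had 5.86 and 4.78 CPM at ZT18 against 18.1 and 10.3 CPM at ZT22, a log2 difference of 1.41 ± 0.47. Tnfaip3, the NF-kB inhibitor A20, had 2.76 and 3.09 CPM at ZT18 against 5.26 and 4.99 CPM at ZT22, a difference of 0.81 ± 0.19. Bcl3 and Irak2, both of the NF-kB pathway, had the opposite order, at -0.51 and -0.34. Steap4, a metalloreductase, had 178 and 146 CPM at ZT18 against 181 and 185 CPM at ZT22. In the edgeR quasi-likelihood test the smallest adjusted p of the list was 0.896.

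Growth hormone acts on the liver through JAK2 and STAT5, and STAT5 in turn drives the feedback inhibitors Socs2 and Cish and silences Bcl6, a repressor that occupies many of the same sites. Socs2 had 4.99 and 2.14 CPM at ZT18 and 23.9 and 24.7 CPM at ZT22, a log2 difference of 2.76 ± 0.74 (edgeR, adjusted p = 0.975). Cish had 2.23 and 2.03 CPM at ZT18 against 25.9 and 5.20 CPM at ZT22, a difference of 2.86 ± 0.98 (edgeR, adjusted p = 0.987). Both inhibitors were higher in each ZT22 library, evenly for Socs2 and mainly in replicate 1 for Cish. Without ZT22 replicate 1 the difference of Cish was 1.28 and without replicate 2 it was 3.60; that of Socs2 was 2.78 and 2.74. Bcl6 had 77.2 and 43.2 CPM at ZT18 against 22.7 and 20.9 CPM at ZT22, a difference of -1.47 ± 0.74 (edgeR, adjusted p = 0.987), with the ZT22 libraries close together and the ZT18 libraries far apart.

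The promoter of Bcl6 is shown because it holds the most STAT motifs among the 15 listed growth hormone genes with a RefSeq promoter. The start shown, of the 2 listed for Bcl6, was chosen for its number of matches. Capitals mark the letters TTCNNNGAA, a palindrome read the same on both strands, in the 250 bases before one of the 2 RefSeq starts of the gene (chr16:23981284-23981533, minus strand, GRCm38.p6).
Bcl6: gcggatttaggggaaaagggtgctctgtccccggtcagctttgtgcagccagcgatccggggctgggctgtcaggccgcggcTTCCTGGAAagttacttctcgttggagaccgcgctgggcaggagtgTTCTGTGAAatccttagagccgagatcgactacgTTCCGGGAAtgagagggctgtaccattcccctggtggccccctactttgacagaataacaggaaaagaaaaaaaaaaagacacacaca
The motif stands there 3 times, beginning 168, 122 and 88 bases before the start. It was found in 2 of the 15 growth hormone genes with a RefSeq promoter (Bcl6 and Igfals) and in 5 of 21 acute-phase genes, against 7.01% of all promoters. No match was found for Cish in this window, which says nothing of STAT binding to this gene.

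The other growth hormone genes did not share one direction. Of the 17 on the list, 4 were higher and 6 lower without overlap, where 19.1% and 20.4% of all genes were. The median was -0.06, and its sign changed when single libraries were left out (-0.17 to 0.12). Stat5a had 17.1 and 17.2 CPM at ZT18 against 11.2 and 12.3 CPM at ZT22, and Stat5b 69.9 and 64.8 at ZT18 against 61.5 and 59.0 at ZT22, each lower without overlap; Stat5a overlaps Stat3 on the opposite strand. Ghr, the growth hormone receptor, had 508 and 582 at ZT18 against 594 and 576 at ZT22, and Igf1, the hormone the liver makes in response, 356 and 409 at ZT18 against 435 and 504 at ZT22. Mup3 and Mup20, 2 of the near-identical major urinary protein genes, had 8844 and 9133 against 10778 and 8708 CPM and 2926 and 4151 against 3800.0 and 1548 CPM, with the lowest level in ZT22 replicate 2. Serpina12, which encodes vaspin and is on the list as a target, had 28.6 and 37.1 CPM at ZT18 and 15.4 and 8.26 CPM at ZT22, a log2 difference of -1.47 ± 0.26 (edgeR, adjusted p = 0.538; DESeq2, 7.52e-05). Cytochromes P450 with known sex and hormone dependence also differed: Cyp2b9 had 11.9 and 14.7 CPM at ZT18 against 45.5 and 54.7 CPM at ZT22, and Cyp2b10 23.1 and 39.0 at ZT18 against 12.4 and 3.07 at ZT22. These 2 genes of one family thus stood on opposite sides; their sequences are similar, so the division of reads between them is uncertain. They and Onecut1 were chosen after their values were seen, as were most list members named here beyond the 2 with the highest mean CPM of each list. Onecut1, a hepatocyte transcription factor that STAT5 is known to regulate, had 20.4 and 17.6 at ZT18 against 61.0 and 52.0 CPM at ZT22, and it overlaps another listed gene on the same strand. Cyp2b9 and Onecut1 were 2 of the 3 genes that edgeR called when only the 4 libraries were fitted. Neither passed in the main edgeR fit of all times, and DESeq2 called neither.

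Cytosolic chaperones were lower at ZT22. Heat shock factor drives them when proteins misfold or temperature rises, and in liver many follow the daily rhythm of body temperature. Of the 21 heat shock genes, 17 had both ZT22 libraries below both ZT18 libraries (20.4% of all genes did) and 0 had both above. At an unadjusted p under 0.05, 9 were lower, where 2.46% of all genes were, and 0 higher. The median log2 difference was -0.37; left-out libraries moved it between -0.51 and -0.25. The number of members with an unadjusted p under 0.05 was 4 without ZT18 replicate 2 and 4 without ZT22 replicate 2.

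The HSP90 system was the most uniform, with all 7 members lower without overlap (20.4% of all genes were) and a median of -0.49. Hsp90ab1, the constitutive HSP90, had 1009 and 1185 CPM at ZT18 and 682 and 755 CPM at ZT22, a log2 difference of -0.61 ± 0.14 (edgeR, adjusted p = 0.883; DESeq2, 0.0235). Hsp90aa1, the inducible HSP90, had 363 and 454 CPM at ZT18 against 213 and 188 CPM at ZT22, a difference of -1.03 ± 0.35. Both genes were lower in each late library. Ahsa1, which stimulates the ATPase of HSP90, had 99.9 and 107 at ZT18 against 72.3 and 75.7 CPM at ZT22. Stip1, the adaptor that hands clients from HSP70 to HSP90, had 125 and 145 at ZT18 against 80.8 and 74.3 CPM at ZT22, and Fkbp4, a co-chaperone of steroid receptors, 259.7 and 273 at ZT18 against 192 and 192 at ZT22. The log2 differences of these 3 were -0.49, -0.80 and -0.47.

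In the HSP70 system 7 of 10 members were lower without overlap, where 20.4% of all genes were. The 10 members summed to 1355 and 1408 CPM at ZT18 against 1312 and 1020 CPM at ZT22, lowest in ZT22 replicate 2. Hsph1, a nucleotide exchange factor of HSP70, had 58.9 and 74.0 CPM at ZT18 against 40.9 and 28.0 CPM at ZT22, and Hspa4l, its relative, 85.0 and 95.7 at ZT18 against 54.9 and 51.4 at ZT22. Hspa8, the constitutive HSP70 and one of the list's 2 members of highest mean CPM, had 641 and 617 at ZT18 against 660.3 and 449 at ZT22, low in ZT22 replicate 2 only. The strongly heat-inducible pair Hspa1a and Hspa1b overlapped, at 4.60 and 5.09 at ZT18 against 5.24 and 2.23 CPM at ZT22 for Hspa1b; reads of these near-identical genes cannot be divided with certainty. Among small chaperones Hspb1, which holds unfolded proteins, had 60.01 and 58.6 CPM at ZT18 and 24.2 and 31.7 CPM at ZT22. Its log2 difference was -1.08 ± 0.26 (edgeR, adjusted p = 0.896), the largest in size of the list, and DESeq2 called it with an adjusted p of 0.0235.

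The promoter of Hspb1 is shown for that reason. Capitals mark GAANNTTC, 2 inverted units of the heat shock element and the same on both strands, in the 250 bases before the RefSeq start (chr5:135887669-135887918, plus strand, GRCm38.p6).
Hspb1: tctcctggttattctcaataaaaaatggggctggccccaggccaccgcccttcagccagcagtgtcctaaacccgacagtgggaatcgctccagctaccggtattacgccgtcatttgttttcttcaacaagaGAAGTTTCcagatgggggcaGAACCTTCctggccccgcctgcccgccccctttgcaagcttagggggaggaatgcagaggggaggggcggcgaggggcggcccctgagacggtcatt
The letters stand 2 times, beginning 117 and 97 bases before the start. They were found in 7 of the 17 listed heat shock genes with a RefSeq promoter, against 6.69% of all promoters. The near-identical Hspa1a and Hspa1b are among the 7. The letters CCACG, part of the ER stress element, were found in 15 of 20 endoplasmic reticulum genes with a promoter, against 28.3% of all promoters. That list, described below, was less uniform in its levels. CACCCCAC, of the sterol regulatory element, was found in 1 of 18 cholesterol genes, against 2.58%.

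**Figure D4:**
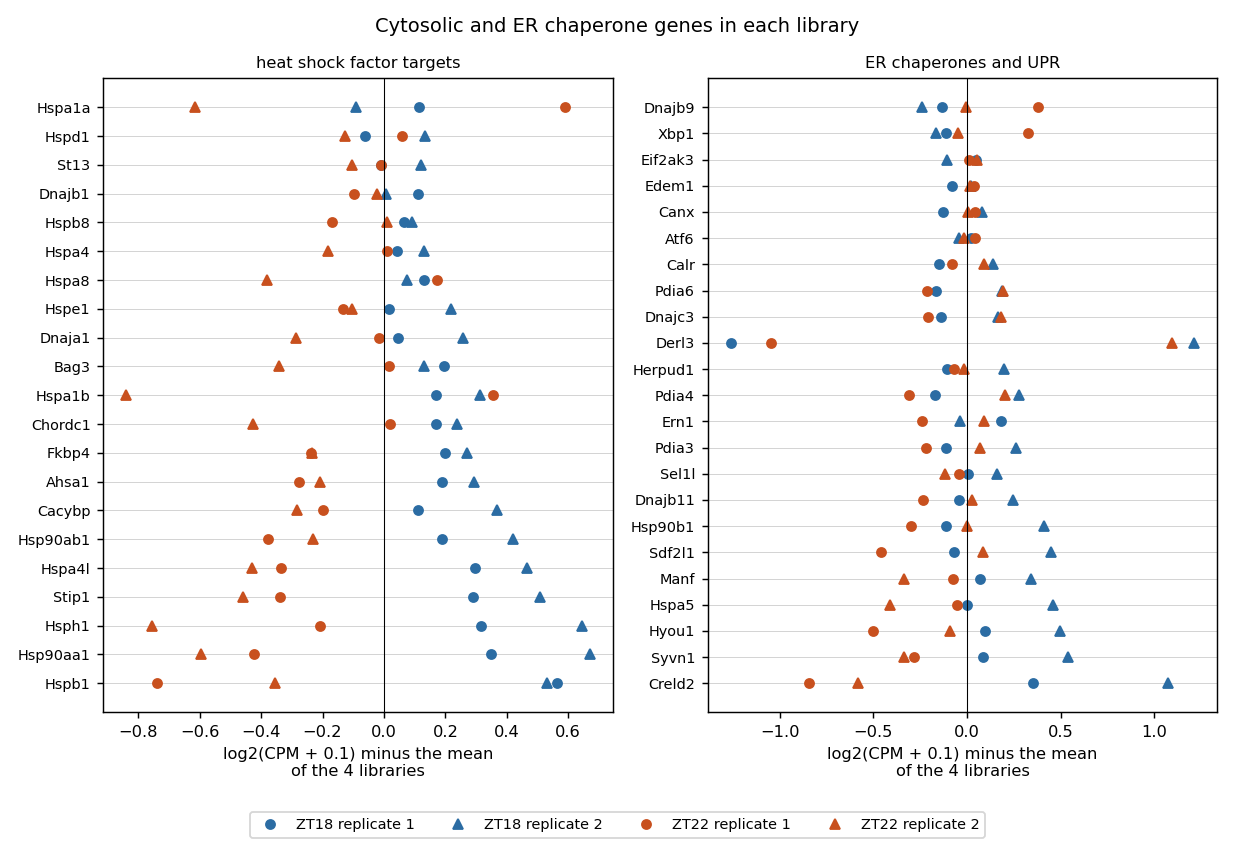
Level in each library as log2(CPM + 0.1) minus the mean of the 4 libraries, for heat shock genes (left) and genes of the endoplasmic reticulum (right); blue marks ZT18, orange ZT22, circles replicate 1 and triangles replicate 2. On the left 17 of 21 genes have both orange symbols to the left of both blue ones. On the right the symbols of 15 of 23 genes mix. There 6 genes, Creld2 and Syvn1 among them, have both orange symbols to the left of both blue ones, and 2 to the right.

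Chaperones of the endoplasmic reticulum did not show the same uniformity. Of 23 genes, 6 were lower and 2 higher without overlap, against 20.4% and 19.1% of all genes, at a median of -0.10. Without ZT22 replicate 1 the median was -0.0037, without ZT18 replicate 2 it was -0.0067, and without ZT22 replicate 2 or ZT18 replicate 1 it was -0.29 or -0.24. Creld2, a small secreted protein of the unfolded protein response, had 91.3 and 150.5 CPM at ZT18 and 39.7 and 47.7 CPM at ZT22, a log2 difference of -1.47 ± 0.27 (edgeR, adjusted p = 0.538; DESeq2, 7.52e-05). Manf, the other secreted member, had 151 and 184 at ZT18 against 137 and 114 CPM at ZT22, and Syvn1, the ubiquitin ligase of degradation from this compartment, 43.5 and 59.6 at ZT18 against 33.7 and 32.5 at ZT22. All 3 were lower in both late libraries; Manf and Syvn1 overlap genes on the opposite strand, whose reads could be counted with theirs. Hspa5, the compartment's HSP70, also known as BiP, had 1015 and 1395 CPM at ZT18 against 978 and 763 CPM at ZT22, while Calr, the lectin chaperone calreticulin, had 989 and 1207 at ZT18 against 1035 and 1168 at ZT22 with overlap. Hyou1, another HSP70 relative, had 502 and 663 at ZT18 against 331 and 442 at ZT22. Xbp1, the transcription factor of this response, had 202 and 194 at ZT18 against 273 and 211 at ZT22, higher in both.

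Targets of ATF4, the factor of the integrated stress response, were more often lower than higher. Of 17 tested genes 6 were lower and 1 higher without overlap, where 20.4% and 19.1% of all genes were. The median log2 difference was -0.29, and left-out libraries moved it between -0.48 and -0.17. At an unadjusted p under 0.05 in edgeR, 1 was higher and 1 lower. The gene higher without overlap was Chac1, an enzyme that degrades glutathione. It had 0.893 and 0.417 CPM at ZT18 against 2.59 and 1.84 CPM at ZT22. Psat1, of serine synthesis, had 0.893 and 1.14 at ZT18 against 0.497 and 0.390 at ZT22. The targets of highest mean CPM had overlapping groups, with log2 differences of 0.08 for Cth and -0.06 for Shmt2.

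Other genes with the smallest p on the higher side were of varied function. Il13ra1, a receptor chain for interleukin-4 and interleukin-13, had 37.6 and 35.9 at ZT18 against 53.3 and 54.6 CPM at ZT22, and Poc5, a centriole protein, 4.12 and 4.31 at ZT18 against 6.05 and 6.21 at ZT22. Both had tight pairs and differences of 0.55 and 0.54.

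On the lower side Chka had the smallest p of all genes tested. It encodes choline kinase, the first step of phosphatidylcholine synthesis from choline, and lies at chr19:3851773-3894369 on GRCm38. Its level was 68.7 and 64.6 CPM at ZT18 and 35.8 and 39.2 CPM at ZT22, a log2 difference of -0.83 ± 0.12 (edgeR, unadjusted p = 2.54e-05, adjusted p = 0.436; DESeq2, adjusted p = 7.52e-05). The pairs at each time were close together. Atxn1, a transcriptional co-repressor, had 69.6 and 63.9 CPM at ZT18 against 38.5 and 31.9 CPM at ZT22, a difference of -0.92 ± 0.15. Rarres1, a retinoid-responsive membrane protein, had 41.9 and 55.5 at ZT18 against 25.2 and 24.3 CPM at ZT22, and Palld, an actin-associated scaffold, 22.1 and 23.1 at ZT18 against 14.4 and 13.9 at ZT22. Notum, the secreted enzyme that inactivates Wnt proteins, had 39.6 and 40.9 at ZT18 against 26.4 and 28.7 CPM at ZT22, and Ywhag, a 14-3-3 adaptor protein, 106 and 103 at ZT18 against 74.9 and 76.9 at ZT22. DESeq2 called Chka, Atxn1, Rarres1 and Palld and did not call Notum and Ywhag.

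Genes driven by 1 library are given by their values alone. Myc, the growth-promoting transcription factor, had 2.44 and 2.59 CPM at ZT18 and 38.4 and 2.47 CPM at ZT22, so that its log2 difference of 3.02 became -0.026 without ZT22 replicate 1. Foxq1, a forkhead factor, had 10.1 and 12.8 at ZT18 against 76.6 and 10.8 CPM at ZT22, and its difference went from 1.93 to -0.082. Dmbt1 went from 11.19 to -1.53 with that library left out. These 3 are high in that library alone. G0s2, the inhibitor of the triglyceride lipase ATGL, had 49.9 and 59.5 CPM at ZT18 against 10.9 and 37.4 CPM at ZT22, and Epha2, an ephrin receptor kinase, 28.6 and 44.96 at ZT18 against 8.09 and 23.3 at ZT22. Both were low in ZT22 replicate 1, and without it their differences were -0.55 and -0.66 in place of -1.18 and -1.23. Gadd45g, of the DNA damage response, and Gbp11, a GTPase induced by interferon, were high in that library: Gadd45g had 1.65 and 2.61 CPM at ZT18 against 16.7 and 1.48 CPM at ZT22, and Gbp11 3.65 and 4.81 against 43.2 and 6.81. Without that library their log2 differences were -0.52 and 0.69, in place of 2.09 and 2.56. With ZT22 replicate 2 left out, so that replicate 1 alone stood for ZT22, edgeR called 26 entries, all higher, among them Dmbt1, Myc, Krt19, Acta2 and Myh11. ZT22 replicate 2 had its own high pair in the metallothioneins Mt1, at 3.93 and 32.7 CPM against 5.46 and 5.14 at ZT18, and Mt2, at 0.655 and 6.31 against 1.18 and 0.918; these proteins bind zinc and copper.

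Immediate-early genes had no common direction. Of 19 tested, 4 were higher and 4 lower without overlap, near the 19.1% and 20.4% of all genes. Egr1, a zinc-finger factor, had 2.13 and 1.78 CPM at ZT18 against 3.40 and 8.18 CPM at ZT22, Jund, of the AP-1 family, 76.3 and 61.4 at ZT18 against 47.5 and 48.2 at ZT22, and Dusp1, a phosphatase of MAP kinases, 15.4 and 25.6 at ZT18 against 9.19 and 8.47 at ZT22. Dusp6, another such phosphatase and the member of highest mean CPM, had 75.2 and 51.7 at ZT18 against 48.6 and 64.3 at ZT22. Egr1 was higher and Jund and Dusp1 were lower in both late libraries. Dusp1 also belongs to the 14 glucocorticoid-responsive genes, of which 4 were lower and 1 higher without overlap (20.4% and 19.1% of all genes). Their median log2 difference was -0.22, and left-out libraries moved it between -0.67 and 0.10. Fkbp5 and Tsc22d3, 2 direct targets of the receptor, overlapped, with 147 and 241 at ZT18 against 102 and 158 CPM at ZT22 for Tsc22d3. Tat, the tyrosine aminotransferase, had 1339.9 and 1626 CPM at ZT18 and 750.5 and 1145 CPM at ZT22, and Errfi1, a feedback inhibitor of EGF receptors, 447 and 890.0 at ZT18 against 827 and 855 at ZT22.

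No clock gene passed the test. Of 19 tested clock and clock output genes, 0 had an unadjusted p under 0.05, 4 were higher and 7 lower without overlap, where 19.1% and 20.4% of all genes were, and the median was -0.16. The median turned to 0.082 without ZT22 replicate 1, and without ZT22 replicate 2 it was -0.23, with 4 members lower at an unadjusted p under 0.05. Arntl, the gene of BMAL1, had 14.996 and 14.4 CPM at ZT18 and 10.3 and 11.7 CPM at ZT22, and Per2, of the repressor arm, 75.8 and 80.1 at ZT18 against 66.4 and 67.8 at ZT22. Dbp, an output factor driven by CLOCK:BMAL1, had 83.8 and 84.0 at ZT18 against 92.5 and 104 at ZT22, and its relative Tef 196 and 215 at ZT18 against 223 and 220.2 at ZT22. The largest difference was that of Ccrn4l (nocturnin), with 24.7 and 61.4 CPM at ZT18 against 14.1 and 24.2 CPM at ZT22, in which ZT18 replicate 2 stands out.

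Lipid and glucose metabolism gave few differences of size. Fatty acid oxidation genes were lower without overlap for 18 of 36 (20.4% of all genes) and higher for 4, yet by small amounts, with a median of -0.14 and 1 member, Cpt2, at an unadjusted p under 0.05. Cpt2, of the mitochondrial carnitine shuttle, had 139 and 147 CPM at ZT18 against 118 and 112 CPM at ZT22. Fabp1, the fatty acid binding protein, had 2162 and 2393 at ZT18 against 2482 and 1901 CPM at ZT22, with overlap. Of 24 fatty acid synthesis genes 8 were lower and 4 higher without overlap. Fasn, the fatty acid synthase, had 2149 and 1599 CPM at ZT18 against 1418 and 1063 CPM at ZT22, a log2 difference of -0.60, whereas Scd1, the desaturase, had 5659 and 3907 at ZT18 against 6257 and 6106 at ZT22, a difference of 0.37. Of 26 cholesterol genes 7 were lower and 3 higher without overlap, at a median of -0.13 that was 0.028 without ZT22 replicate 1, with a log2 difference of -0.17 for Insig1, which holds back sterol synthesis. Pck1, which commits carbon to glucose synthesis, had 1368 and 2174 at ZT18 against 1066 and 1591 CPM at ZT22. Of 10 glycogen genes 2 were lower and 1 higher, with -0.23 for the targeting subunit Ppp1r3b and 0.05 for the phosphorylase Pygl. The largest difference of the list was -0.88, for the targeting subunit Ppp1r3c, the 1 member at an unadjusted p under 0.05 in edgeR.

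The remaining lists are given by their counts without overlap and log2 differences, which the plot of lists also shows; over all genes 19.1% were higher and 20.4% lower without overlap, and many of these counts are near those shares. Of 23 drug-metabolizing enzymes 10 were lower and 6 higher without overlap; Cyp3a11 and Cyp2e1 had log2 differences of -0.28 and -0.04. Of 27 ribosome biogenesis genes 11 were higher and 6 lower, with Ncl at 0.16 and Npm1 at 0.20. Of 21 replication and cell cycle genes 8 were higher and 3 lower, Mcm10 at 0.46 and Ccnd1 at -0.04. Of 16 iron and BMP genes 7 were lower and 4 higher; Trf, the transferrin gene, had 0.15 and Ftl1, the ferritin light chain, -0.10. Hamp2, a copy of the hepcidin gene, had 2.84 and 2.75 CPM at ZT18 against 7.46 and 8.29 CPM at ZT22, the opposite order to Hamp. Of 17 interferon-inducible GTPases 5 were higher and 0 lower, Iigp1 at 0.27 and Irgm2 at 0.24. Of 29 other interferon-stimulated genes 6 were higher and 2 lower, Bst2 at -0.11 and Parp14 at -0.04. The 15 antigen presentation genes all overlapped, B2m at -0.01 and H2-K1 at -0.00.

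**Figure D5:**
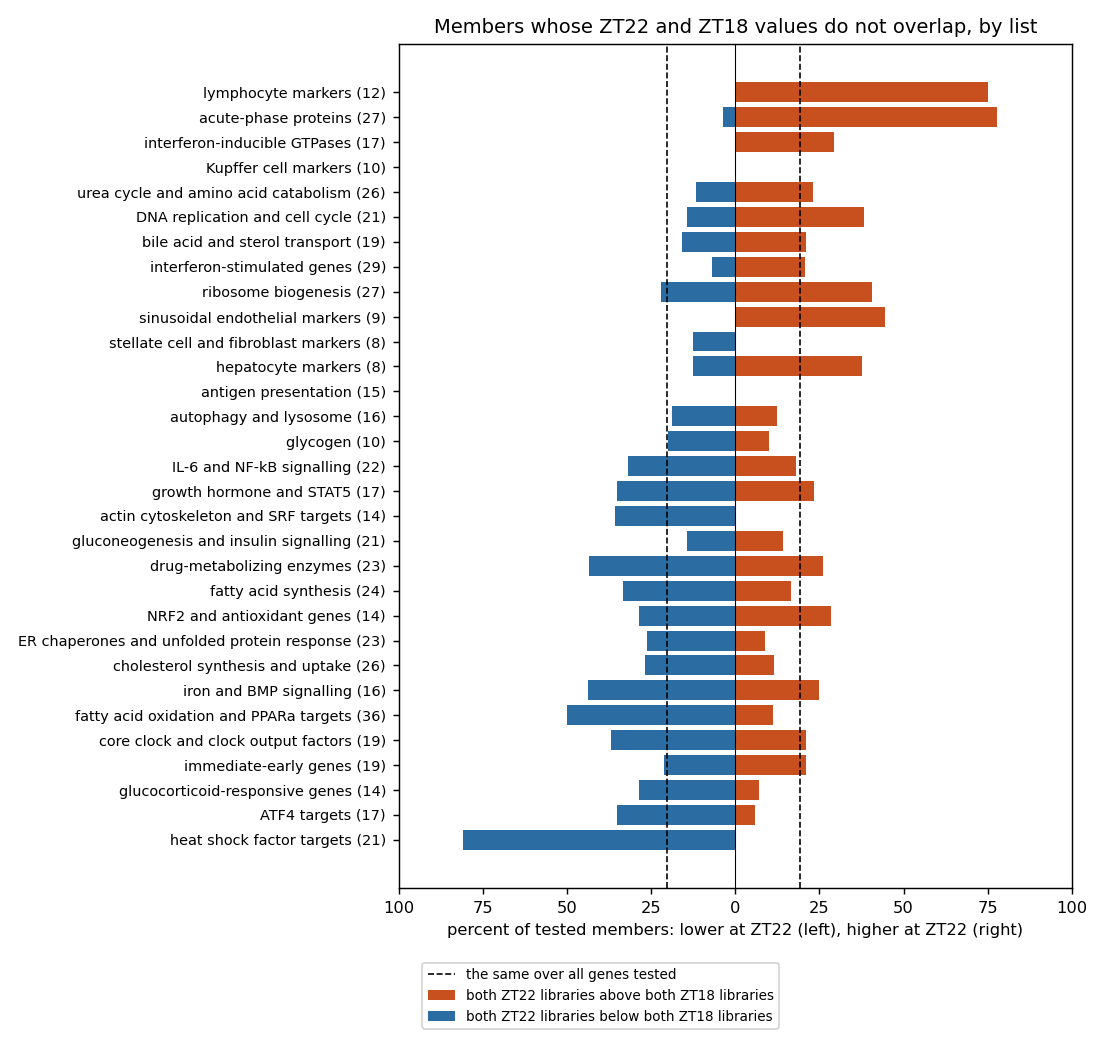
Share of each list's tested members (number in brackets; lists with at least 8) whose ZT22 libraries both lie above (orange, right) or both below (blue, left) the ZT18 libraries, ordered by median log2 difference; dashed lines give the shares over all genes, 19.1% and 20.4%. Acute-phase proteins (21 of 27) and lymphocyte markers (9 of 12) extend farthest to the right and heat shock genes (17 of 21) farthest to the left.

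Of 26 urea cycle and amino acid genes 6 were higher and 3 lower without overlap, of 19 bile acid genes 4 and 3, of 14 antioxidant genes 4 and 4, of 16 autophagy and lysosomal genes 2 and 3, of 21 gluconeogenesis and insulin genes 3 and 3, and of 14 actin and SRF genes 0 and 5, again to be read against 19.1% and 20.4% of all genes. Cps1, the entry enzyme of the urea cycle, had 5833 and 6039 CPM at ZT18 and 7167 and 6384 CPM at ZT22, and Ass1, a later enzyme, 1864 and 2235 at ZT18 against 2656 and 1875 at ZT22. Slc27a5 and Slco1b2, which activate and take up bile acids, had log2 differences of 0.16 and -0.01. Those of Cat and Gpx1, which remove hydrogen peroxide, were -0.04 and 0.00, and those of Lamp1 and Lamp2, of the lysosomal membrane, -0.02 and 0.04. Actb and Myh9, of the actin cytoskeleton, had 0.11 and -0.03. Among markers of structural liver cells, 4 of 9 for sinusoidal endothelium were higher and 0 lower without overlap, with Stab2 and Stab1 at 0.10 and -0.05. For stellate cells 1 of 8 was lower and 0 higher, with Dcn and Reln at -0.22 and -0.15. Of 8 hepatocyte markers 3 were higher and 1 lower; Apob, the structural protein of lipoproteins, had 0.04. Of the 6 cholangiocyte markers 5 overlapped; Krt19 had 2.49 and 2.11 CPM at ZT18 and 11.8 and 0.909 CPM at ZT22, high in ZT22 replicate 1, and Spp1 33.7 and 39.8 at ZT18 against 43.1 and 29.4 at ZT22. The pancreatic acinar gene Ctrb1 was at 2.70 CPM in that same library and at most 0.0788 CPM in the others. Cela2a, also acinar, had 0.446 and 0.334 CPM at ZT18 and 0.288 and 1.30 CPM at ZT22. The 8 acinar genes summed to 0.814 and 0.334 CPM at ZT18 and 2.98 and 1.48 CPM at ZT22, and the 3 adipocyte genes in the table to 0.0263 and 0.111 at ZT18 against 1.52 and 0.0260 at ZT22.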

How the data were processed

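The deposited table holds raw exon counts per gene for 12 libraries, made by the authors from paired-end reads of stranded, rRNA-depleted total RNA (per the labels' protocols). Alignment used STAR 2.4.0i on mm10, per the submitters' processing notes. For the read counter, its use of strand and the gene models, details are not given in the sources used here. Of 22618 genes, 17142 passed edgeR's filterByExpr (minimum count 10, minimum total 15).

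Counts were scaled by TMM and fitted with edgeR 4.0.16 (quasi-likelihood, R 4.3.3) over all 6 times without a block; the contrast was ZT22 minus ZT18, with Benjamini-Hochberg adjustment over all genes. SE is the log2 difference divided by the root of F. Log2 CPM used a prior count of 2. Scripts were tested on simulated data. Library totals of the series were 34715506 to 46074052. Gene positions are from GENCODE (GRCm38; 22054 IDs matched), promoters from RefSeq.

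The members and gene lists were chosen with earlier results of these data known. The text names the 10 genes of smallest p per direction with at least 5 CPM and no overlap, the 2 members of highest mean CPM per list, and the 5 largest genes driven by 1 library; others were added after their values were seen, and a few genes that meet the rule are not reported here. Deviations of same-numbered libraries of ZT18 and ZT22 correlated at -0.091 over 9842 genes; with only these pairs, and no label that says what a number marks, the numbers were not taken to pair libraries. Values without a library are edgeR refits. Alternatives were DESeq2 1.42.0, limma-voom 3.58.1, robust fitting, RLE or total-count scaling, other filters, fewer libraries, a replicate block and each library left out.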

Additional observations from a re-analysis of the deposited data

How the results depend on the processing

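The count of 0 called genes became 19 with DESeq2, 3 when only the 4 libraries of ZT18 and ZT22 were fitted, and 135 (53 higher, 82 lower) when that fit also had the replicate block; with the replicate block in the fit of all 12 libraries it was 0, with 810 genes at an unadjusted p under 0.05. The labels do not say that a replicate number marks a shared animal, litter or day, so the block is given as a value only. Leaving out 1 library gave 0 to 26 called genes, 1 without ZT22 replicate 1 and 26 without ZT22 replicate 2, where the lone library is assumed to vary like the other groups. The 845 genes at an unadjusted p under 0.05 became 1425 in the 4-library fit, 1425 in that fit with the block, and 507 to 942 with 1 library left out (507 without ZT18 replicate 1). Left-out libraries moved the log2 difference of Dmbt1 between -1.53 and 12.71, of Myc between -0.026 and 3.93 and of Foxq1 between -0.082 and 2.74; each changed sign without ZT22 replicate 1. Over all alternatives, 77 of 2396 values of single genes (45 of 96 genes) and 33 of 925 list medians (18 of 37 lists, glycogen most often) had the other sign; the acute-phase and heat shock medians did not change sign. A gene at 0 could have up to 0.0770 to 0.0835 CPM at these depths (3 counts, counting error only).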
